A study of Mus musculus with 11 samples.

Results

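The genes described here are 41 genes of DNA replication and of entry into S phase, chosen by symbol from a count table of 19207 mouse genes. All 41 were found in the table, each on a single row. RNA of C57BL/6 mouse liver was sequenced in 11 libraries to compare wild-type mice with mice that lack Hmgb2 (Hmgb2-/-, a DNA-bending chromatin protein), each given oil or carbon tetrachloride. Carbon tetrachloride (CCl4) is a solvent that injures hepatocytes around the central vein, after which the surviving cells divide, and oil is its usual carrier. There were 3 libraries of wild type after oil (WT_Oil 1, 2 and 3), 3 of wild type after CCl4 (WT_CCL4 4, 5 and 6), 2 of Hmgb2-/- after oil (KO_Oil 11 and 12) and 3 of Hmgb2-/- after CCl4 (KO_CCL4 24, 25 and 15). All groups share the C57BL/6 strain and whole flash-frozen liver as the source. Age, sex, dose, the time after treatment and the design of the deleted allele are not stated in the labels. Nothing there says that each library came from a separate mouse, so the p-values speak only of how far these libraries scatter, and that scatter may be technical.

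Before a cell copies its DNA, the origin recognition complex (Orc1, Orc6) and the loaders Cdc6 and Cdt1 place the ring-shaped MCM helicase on origins. In S phase Cdc45, the GINS proteins and Mcm10 turn the helicase on, primase and the polymerases copy the strands, and the sliding clamp Pcna, set on DNA by the Rfc clamp loader, holds the polymerases in place. Most hepatocytes of the adult liver rest outside the cycle, and many of the genes of this machinery are known targets of the E2F transcription factors, which act at the passage from G1 to S phase.

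The sequence just upstream of the genes is shown first. The members were chosen by symbol, but many are known E2F targets. A high share of E2F words among them therefore follows from the kind of gene listed and is no independent support. RefSeq promoters (GRCm38.p6, from 250 bases before to 50 bases after the start site) were matched by symbol for 34 of the 41 members. Each was searched on both strands for 4 words of 8 bases, TTTCCCGC, TTTCGCGC, TTTGGCGC and TTTGCCGC, picked after the data had been seen. Of the 34 members 12 held at least 1 word in a listed promoter, or 35.3%, beside 4.36% of the 11225 genes of the table with a promoter and 1 of 21 promoters (4.76%) of a list of mitosis genes. Of the 18 words found in members 1 overlapped a match of another motif searched (the CCAAT box, the GC box GGGCGG and the CHR element described next). The 12 members were Orc1, Cdc6, Cdt1, Mcm3, Mcm5, Mcm6, Mcm7, Pola1, Pold1, Rfc3, Lig1 and Uhrf1. The word TTTGAA, known as the CHR element of mitotic genes, was found in 3 of the 34 members (8.82%), in 16 of the 21 mitosis genes (76.2%) and in 15.1% of all genes. A match is a description of these letters and shows no binding, and no match says only that the words are absent from this window.

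The 250 bases before the start site are given for Mcm5 and Mcm6, the helicase genes that rose most after CCl4, and for Mcm10, the member that fell, and Tk1, the member called between genotypes after oil. Sequences run 5′ to 3′ on the gene's strand, and capitals mark the E2F words, 2 of which overlap on opposite strands in Mcm5 and again in Mcm6.

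Mcm5 (chr8:75109259-75109508, plus strand): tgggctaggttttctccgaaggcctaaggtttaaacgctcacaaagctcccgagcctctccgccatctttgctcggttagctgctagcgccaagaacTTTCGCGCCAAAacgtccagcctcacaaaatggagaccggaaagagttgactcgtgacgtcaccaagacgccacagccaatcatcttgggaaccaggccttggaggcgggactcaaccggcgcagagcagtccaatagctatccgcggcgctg

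Mcm6 (chr1:128359706-128359955, minus strand): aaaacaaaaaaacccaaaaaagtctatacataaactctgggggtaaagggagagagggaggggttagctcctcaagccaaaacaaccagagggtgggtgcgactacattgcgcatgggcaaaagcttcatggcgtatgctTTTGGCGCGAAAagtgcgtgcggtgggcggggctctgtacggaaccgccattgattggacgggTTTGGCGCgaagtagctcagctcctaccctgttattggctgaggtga

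Tk1 (chr11:117826015-117826264, minus strand): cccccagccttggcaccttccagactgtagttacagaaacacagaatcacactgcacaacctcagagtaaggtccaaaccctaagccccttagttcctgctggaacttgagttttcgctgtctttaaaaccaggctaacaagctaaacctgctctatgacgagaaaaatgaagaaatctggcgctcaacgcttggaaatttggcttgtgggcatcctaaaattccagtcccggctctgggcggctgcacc

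Mcm10 (chr2:5012792-5013041, minus strand): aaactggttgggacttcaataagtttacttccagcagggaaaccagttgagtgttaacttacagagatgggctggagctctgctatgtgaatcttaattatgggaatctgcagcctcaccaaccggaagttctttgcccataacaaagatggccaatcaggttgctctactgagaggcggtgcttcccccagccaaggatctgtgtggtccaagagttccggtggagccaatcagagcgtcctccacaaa

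For other members of the licensing complex and the helicase, and for called members elsewhere, the first E2F word is shown with up to 10 bases on either side. It lies 27 bases before the start site in Orc1, 138 before it in Cdc6, 165 before it in Mcm7 and 185 before it in Uhrf1, where it is in the second listed promoter. In Mcm3, Cdt1 and Pold1 it begins 20, 33 and 40 bases after the start site.

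Orc1 (chr4:108579417-108579444, plus strand): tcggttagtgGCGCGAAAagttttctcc

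Cdc6 (chr11:98908003-98908030, plus strand): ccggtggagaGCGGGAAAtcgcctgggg

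Cdt1 (chr8:122568037-122568064, plus strand): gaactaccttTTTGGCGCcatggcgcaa

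Mcm3 (chr1:20820276-20820303, minus strand): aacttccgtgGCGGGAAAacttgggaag

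Mcm7 (chr5:138172031-138172058, minus strand): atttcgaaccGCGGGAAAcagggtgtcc

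Pold1 (chr7:44548766-44548786, minus strand): gtatcttgtgGCGGGAAAagc

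Uhrf1 (chr17:56304118-56304145, plus strand): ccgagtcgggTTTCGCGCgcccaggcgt

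The total count per library ranged from 7306082 in KO_Oil 11 to 14116886 in WT_CCL4 4, and the members took 0.0284% to 0.0554% of a library, so several of them rest on few reads. Hmgb2 had 1.93 to 7.42 CPM (counts scaled to the library's size) in wild-type libraries and 0 to 0.951 CPM in Hmgb2-/- libraries, without overlap. Hepatocyte markers summed to 47700 to 69800 CPM in every library, with none of the 9 in the table at 0. WT_CCL4 5 stood apart from the other libraries of its group: Mki67, a marker of cycling cells, had 10.6 CPM there beside 86.2 and 52.9 CPM in WT_CCL4 4 and 6. The summed level of 10 infiltrating macrophage markers was 190 CPM in that library and 478 and 594 CPM in the others, and that of 10 stellate cell markers 1020 beside 2280 and 2750 CPM. The calls on wild-type liver after CCl4 are therefore also given without WT_CCL4 5. That library was singled out partly by a low cycling marker, and the members were low there too. More calls without it thus follow from this choice and give no support of their own. Since the samples are whole liver, fewer or more cells of a type and less or more RNA per cell cannot be told apart. Libraries also differed in how their genes deviated with GC content from others of the same group (rho across genes from -0.444 in WT_Oil 2 to 0.555 in WT_Oil 1), and the median GC content was 49.2% both for the members' transcripts and for all tested genes.

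Levels between genes were compared with the FPKM values (fragments scaled to gene length and library size) that the authors deposited, which are scaled to gene length. Over all 11 libraries the mean FPKM was highest for Pcna (9.27, range 7.09 to 13.2), Mcm10 (8.53, 5.67 to 11.7), Tk1 (6.84, 3.43 to 10.7), Rfc1 (5.32, 3.53 to 6.52) and Rpa1 (5.04, 3.93 to 6.87). Neighbours in that order overlapped in their ranges, and the order turned with the group: mean FPKM of Mcm10 and Pcna was 9.95 ± 1.71 and 7.32 ± 0.194 (SD, n = 3) in wild type after oil and 6.33 ± 0.647 and 10.7 ± 3.01 (SD, n = 3) after CCl4. In Hmgb2-/- liver after oil Mcm10 had 11.4, Tk1 10.6 and Pcna 10.4 FPKM (n = 2), and after CCl4 Pcna was highest at 9.01. At the other end stood Cdc6 (mean 0.110, range 0 to 0.474), Fignl1 (0.170, 0 to 0.921), Orc1 (0.239, 0.0746 to 0.712) and Uhrf1 (0.319, 0.0231 to 1.36). The helicase subunits, which act in equal number in the ring, ranged in mean FPKM from 0.711 for Mcm2 to 3.67 for Mcm7.

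**Figure D1:**
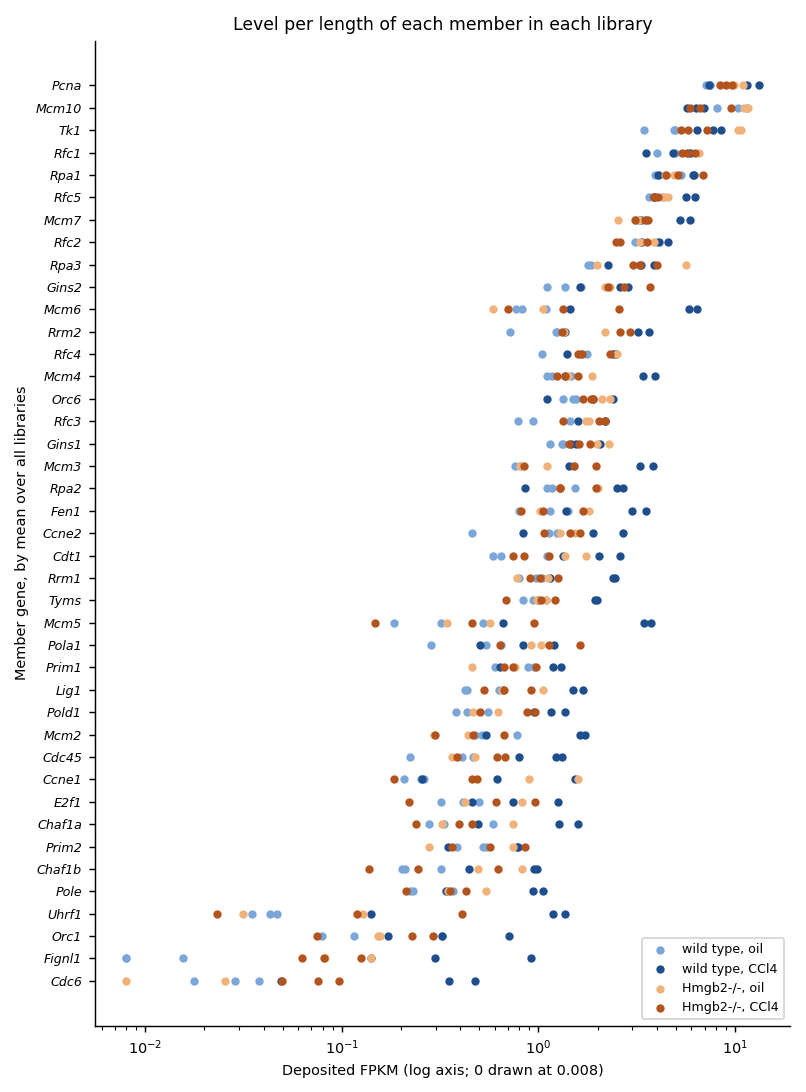
Deposited FPKM of each member (log axis, values of 0 drawn at 0.008), with 1 point per library coloured by group and genes ordered by their mean over the 11 libraries. Pcna, Mcm10 and Tk1 lie highest and Cdc6 lowest, and for Mcm5, Mcm6 and Uhrf1 the points of WT_CCL4 4 and 6 stand to the right of all others.

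After CCl4 wild-type liver had more RNA of a set of licensing, helicase, polymerase and chromatin genes and less of Mcm10. Of 41 members 9 rose, namely Cdc6, Cdt1, Mcm5, Mcm6, Cdc45, Pold1, Rrm1, Uhrf1 and Fignl1, and Mcm10 fell (edgeR's quasi-likelihood test, Benjamini-Hochberg adjusted p below 0.05 over 16866 tested genes). Over all tested genes 6.98% rose and 1.51% fell. The median log2 fold change was 0.80 over the members and -0.02 over all genes, and 38 of the 41 members were above 0. At an unadjusted p below 0.05 there were 23 members higher and 1 lower, beside 15% and 8.14% of all genes. In 12 members all 3 CCl4 libraries lay above all 3 oil libraries, and in 1 below, beside 17.1% and 11.7% of all genes. Without WT_CCL4 5 the members that rose numbered 21, beside 9.66% of all genes, and without WT_CCL4 4 or without WT_CCL4 6 no member was called, beside 2.68% and 2.37% of all genes higher. The share of all genes that was called thus moved with these libraries as well.

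**Figure D2:**
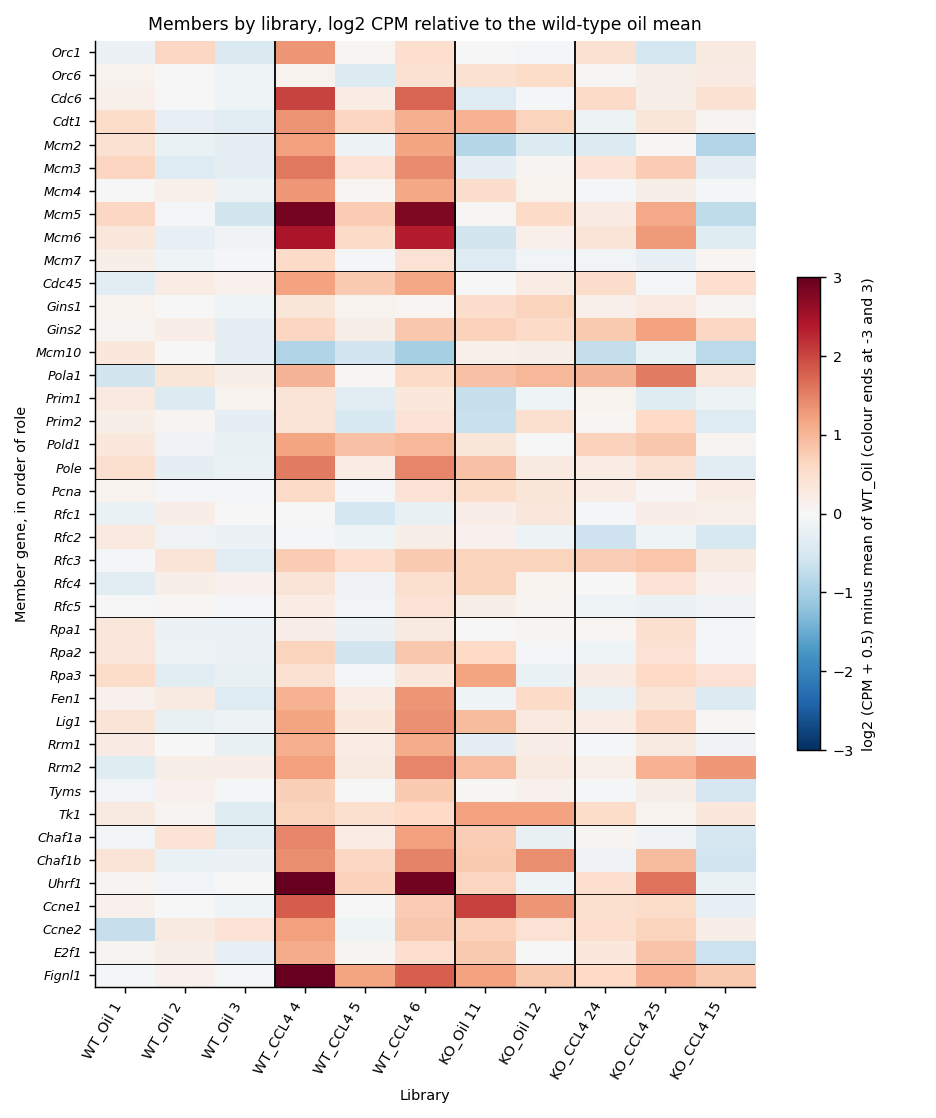
Level of each of the 41 members (rows, in order of role) in each of the 11 libraries (columns), as log2 (CPM + 0.5) minus the mean of the 3 WT_Oil libraries, red for higher and blue for lower. WT_CCL4 4 and 6 are red in most rows, with a median over the members of 1.09 and 0.80, WT_CCL4 5 has a median of 0.09, and the Mcm10 row is blue after CCl4.

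Among the genes that recognise and license origins, Cdc6, the ATPase that brings the helicase to the origin complex, had 0.227, 0.152 and 0.0974 CPM in WT_Oil 1, 2 and 3 and 2.20, 0.262 and 1.70 CPM in WT_CCL4 4, 5 and 6. The gene was close to the limit of detection after oil, with 5 counts over the 3 oil libraries and 56 over the 3 CCl4 libraries, and WT_CCL4 5 lay just above the oil group. Its log2 fold change was 3.09 (SE 0.78, edgeR adjusted p = 0.0306). The ratio of the summed counts, scaled to depth, was 9.49 with a 95% counting interval of 3.83 to 30.4, which covers counting error only. Cdt1, the partner of Cdc6 in loading the helicase, had 3.97, 2.06 and 1.95 CPM after oil and 7.23, 4.28 and 5.84 CPM after CCl4, so the groups did not overlap. It rose 2.21-fold (log2 1.15, SE 0.32, edgeR adjusted p = 0.045), a call at the edge of the threshold. Orc1 and Orc6, subunits of the origin recognition complex, missed the threshold with log2 fold changes of 0.99 (SE 0.61) and 0.10 (SE 0.25).

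Of the 6 helicase subunits Mcm5 and Mcm6 rose, and all 6 had fold changes above 0. Mcm5 (chromosome 8, 75109568 to 75128439, plus strand) had 2.38, 1.30 and 0.779 CPM in the WT_Oil libraries and 13.2, 2.70 and 12.6 CPM in WT_CCL4 4, 5 and 6. The fold change of 6.51 (log2 2.70, SE 0.65, edgeR adjusted p = 0.0234) thus rests on WT_CCL4 4 and 6, while WT_CCL4 5 was only slightly above WT_Oil 1. Mcm6 (chromosome 1, 128331589 to 128359664, minus strand) had 5.79, 3.66 and 4.09 CPM after oil and 26.6, 6.89 and 25 CPM after CCl4. WT_CCL4 4 and 6 were again far above the other libraries, with WT_CCL4 5 slightly above WT_Oil 1, and Mcm6 rose 4.36-fold (log2 2.12, SE 0.51, edgeR adjusted p = 0.0231). Mcm2 went from 6.13, 3.66 and 3.51 CPM to 10.7, 3.84 and 10.4 CPM, with WT_CCL4 5 inside the oil range. Its log2 fold change of 0.92 (SE 0.39, edgeR adjusted p = 0.176) passed without WT_CCL4 5. Mcm3 (1.26), Mcm4 (1.01) and Mcm7 (0.35) did not pass, with edgeR adjusted p = 0.0664, 0.059 and 0.287, and the CPM of all 3 overlapped between the groups. The subunits of the ring thus differed in fold change from 1.27 for Mcm7 to 6.51 for Mcm5 in the same libraries, and differences between subunits were not tested.

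The genes that turn the helicase on moved in opposite directions. Cdc45, which joins the MCM ring and GINS into the active helicase, had 0.568, 1.07 and 0.974 CPM after oil and 2.64, 1.83 and 2.54 CPM after CCl4, without overlap. It rose 2.62-fold (log2 1.39, SE 0.36, edgeR adjusted p = 0.0336), and without WT_CCL4 5 its log2 fold change was 1.54. Gins1 and Gins2, subunits of GINS, did not pass (log2 fold changes 0.23 and 0.58), and the counts of Gins2 can include reads of Gse1, which shares 2758 exonic bases on the other strand. Mcm10 (chromosome 2, 4989713 to 5012791, minus strand), a scaffold that acts in helicase activation, had 100, 80.6 and 65.9 CPM after oil and 43.4, 54.7 and 40.1 CPM after CCl4. Every CCl4 library was below every oil library, with WT_CCL4 5 nearest to them. Mcm10 fell by 0.84 on the log2 scale (SE 0.20, edgeR adjusted p = 0.0238). No other annotated gene shares exonic bases with it.

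Among primase and polymerase genes Pold1, the catalytic subunit of polymerase delta, had 3.07, 2.13 and 1.95 CPM after oil and 5.91, 4.71 and 5.18 CPM after CCl4. Here WT_CCL4 5 was close to the other CCl4 libraries and the groups did not overlap. Pold1 rose 2.23-fold (log2 1.16, SE 0.28, edgeR adjusted p = 0.0262). Pole, the catalytic subunit of polymerase epsilon, had a log2 fold change of 1.29 (SE 0.39, edgeR adjusted p = 0.0623). The primase-associated genes Pola1, Prim1 and Prim2 had 0.59, 0.16 and 0.19, and none passed.

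No gene of the sliding clamp or its loader passed. Pcna, the clamp itself, had 20.3, 18.1 and 18.0 CPM after oil and 28.2, 18.1 and 25.4 CPM after CCl4, with WT_CCL4 5 at the level of the oil libraries. Its log2 fold change was 0.35 (SE 0.17, edgeR adjusted p = 0.245). The Rfc genes ranged from -0.24 for Rfc1, the large subunit of the loader, to 0.71 for Rfc3 (edgeR adjusted p = 0.101), whose groups did not overlap. The trimer that coats single-stranded DNA (Rpa1, Rpa2, Rpa3) had log2 fold changes of 0.10, 0.45 and 0.26. Fen1 and Lig1, the nuclease and ligase that finish Okazaki fragments, had 1.01 and 1.16 (edgeR adjusted p = 0.114 and 0.0659). None of these 5 genes passed. Fen1 shares 1909 exonic bases with the antisense model Gm10143.

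All 4 genes of nucleotide supply were higher at an unadjusted p below 0.05, as were 23 of the 41 members and 15% of all genes. Of the 4 only Rrm1 passed the adjusted test. Rrm1, the large subunit of ribonucleotide reductase, had 13.1, 10.9 and 9.25 CPM after oil and 23.9, 12.9 and 24.3 CPM after CCl4, with WT_CCL4 5 inside the oil range. It rose 1.84-fold (log2 0.88, SE 0.25, edgeR adjusted p = 0.0449), a call that 11 of 21 other settings did not keep. Rrm2, the small subunit whose amount follows S phase, had 2.27, 3.51 and 3.60 CPM after oil and 7.86, 3.84 and 9.32 CPM after CCl4. Its groups did not overlap, yet the log2 fold change of 1.15 (SE 0.39, edgeR adjusted p = 0.0878) did not pass. Tyms, thymidylate synthase, had 0.58 (SE 0.25, edgeR adjusted p = 0.186). Tk1, the cytosolic thymidine kinase, had 29.4, 25.9 and 18.9 CPM after oil and 39.1, 34.0 and 36.9 CPM after CCl4, without overlap (log2 0.57, SE 0.17, edgeR adjusted p = 0.0614).

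The steepest fitted changes were those of genes almost silent after oil. Uhrf1, which brings the maintenance methyltransferase Dnmt1 to newly copied DNA, had 0.227, 0.152 and 0.195 CPM after oil and 5.15, 0.611 and 4.61 CPM after CCl4. Its counts were 6 over the oil libraries and 138 over the CCl4 libraries, a depth-scaled ratio of 19.5 (95% counting interval 8.73 to 54.0), and the log2 fold change was 4.14 (SE 0.95, edgeR adjusted p = 0.0197). Chaf1a and Chaf1b, subunits of the histone chaperone CAF-1 that packs new DNA, did not pass at log2 fold changes of 1.25 and 1.5 (edgeR adjusted p = 0.106 and 0.0749), and Chaf1a shares 4648 exonic bases with Ubxn6 on the other strand. Fignl1, an ATPase that acts in recombination repair, had 1 count over the 3 oil libraries, or 0, 0.0762 and 0 CPM, and 3.96, 0.698 and 1.32 CPM after CCl4. The ratio of summed counts, 85 to 1, was 72.0 after scaling to depth, with a 95% counting interval of 12.6 to 2880 (edgeR adjusted p = 0.00506). Fignl1 reached the count filter only through WT_CCL4 libraries, as did Cdc6, so both had to be high there to be tested at all. Uhrf1 reached the level of the filter in 2 WT_CCL4 libraries, 1 KO_CCL4 library and no oil library, so its test also rested on WT_CCL4.

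Of the regulators of the passage from G1 to S phase none passed in wild-type liver. Ccne1, which encodes cyclin E1, had 0.795, 0.686 and 0.584 CPM after oil and 3.65, 0.698 and 1.51 CPM after CCl4, with WT_CCL4 5 at the oil level (log2 1.54, SE 0.58, edgeR adjusted p = 0.127). Ccne2 had a log2 fold change of 0.73 (SE 0.38). E2f1, an activating member of the E2F family, had 1.48, 1.60 and 1.07 CPM after oil and 3.52, 1.48 and 2.17 CPM after CCl4 (log2 0.80, SE 0.48, edgeR adjusted p = 0.348), with overlap between the groups.

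**Figure D3:**
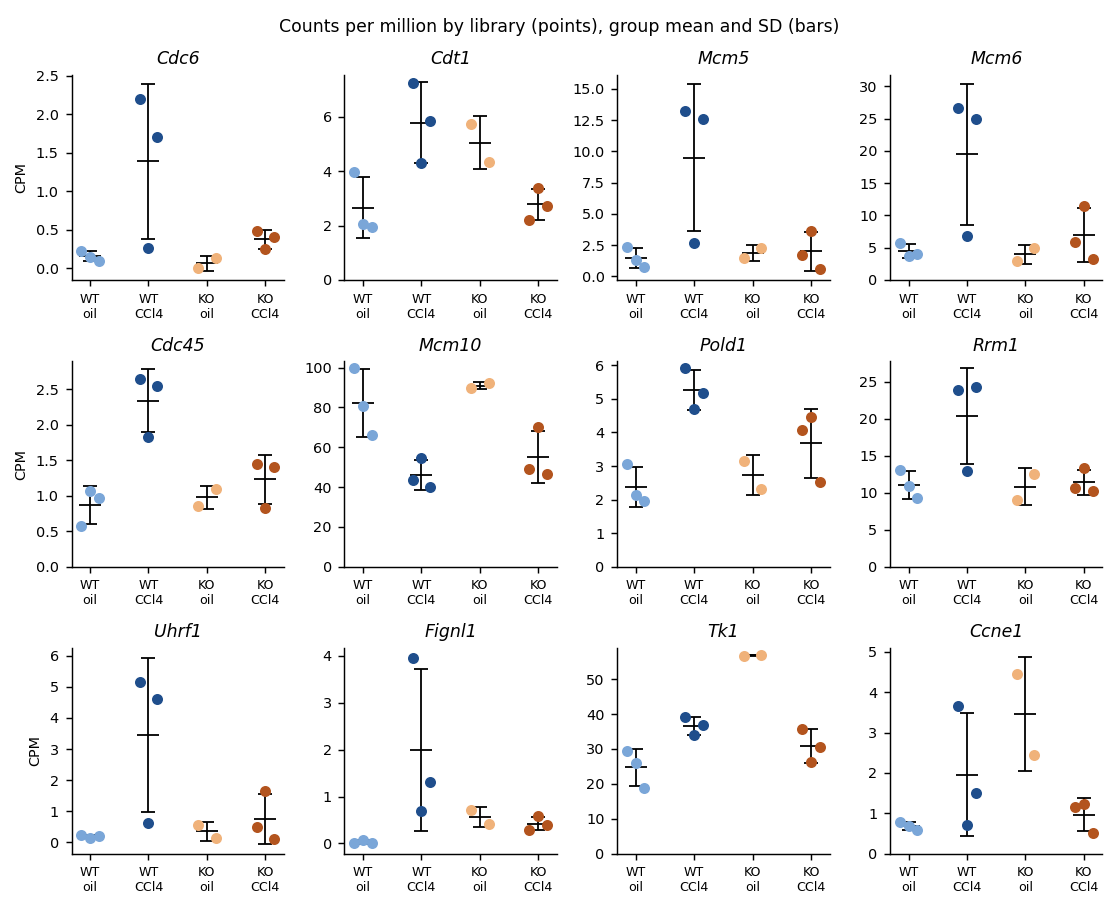
CPM of 12 members in each library (points, coloured by group) with the group mean and SD (bars). For Cdc6, Mcm5, Mcm6, Rrm1, Uhrf1 and Ccne1 the lowest of the 3 wild-type CCl4 points, WT_CCL4 5, lies near the oil points, Mcm10 is lower after CCl4, and the group means of Tk1 and Ccne1 are highest in Hmgb2-/- liver after oil.

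The E2F word of the promoters was present in 6 of the 9 members that rose (Cdc6, Cdt1, Mcm5, Mcm6, Pold1 and Uhrf1), in 6 of the 24 uncalled members with a promoter and not in Mcm10. Rrm1, Cdc45 and Fignl1 rose without any of the 4 words in the window. These shares describe 34 promoters and were not tested.

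The wild-type calls depended on single libraries. Without WT_CCL4 5 the log2 fold changes were 3.56 for Cdc6, 1.32 for Cdt1, 3.14 for Mcm5, 2.53 for Mcm6, 1.54 for Cdc45, -0.98 for Mcm10, 1.23 for Pold1, 1.13 for Rrm1 and 4.62 for Uhrf1, all called. Mcm3, Mcm4, Pole, Lig1, Chaf1a, Chaf1b, Rrm2, Ccne1, Fen1, Mcm2, Tyms and Pcna were called higher as well in that fit. The calls of Mcm5, Mcm6, Pold1 and Uhrf1 were lost without WT_Oil 2, WT_Oil 3, WT_CCL4 4 or WT_CCL4 6, with adjusted p up to 0.109, 0.0991, 0.11 and 0.128 over all settings, and that of Cdc45 also without WT_Oil 1 (up to 0.137). Mcm10 was lost without WT_Oil 1, WT_Oil 2, WT_CCL4 4 or WT_CCL4 6 (up to 0.128). Cdt1 and Rrm1 were lost without WT_Oil 2, WT_Oil 3, WT_CCL4 4, WT_CCL4 6, KO_Oil 11, KO_Oil 12 or KO_CCL4 24 (up to 0.197 and 0.196). Cdc6 was lost without any of the WT_Oil libraries (up to 0.131), and with Fignl1 it fell below the count filter without WT_CCL4 4 or 6. Fignl1 was tested in 17 other settings and called in each, but only where WT_CCL4 libraries carried it past the filter, so this gives no support of its own.

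In Hmgb2-/- liver no member was called after CCl4, higher or lower (edgeR's quasi-likelihood test), beside 0.332% of all genes higher and 0.32% lower. DESeq2 called 1 member there, Tk1, as lower (2.44% of the members beside 1.04% of all genes). At an unadjusted p below 0.05 there were 0 members higher and 4 lower, namely Tk1, Mcm10, Ccne1 and Cdt1, beside 7.26% and 5.78% of all genes. The members' median log2 fold change was -0.17 and that of all genes 0.02. In 9 members all CCl4 libraries were below both oil libraries and in 1, Cdc6, above them, beside 14% and 15.6% of all genes.

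Mcm5 had 1.44 and 2.31 CPM in KO_Oil 11 and 12 and 1.74, 3.63 and 0.604 CPM in KO_CCL4 24, 25 and 15, a log2 fold change of 0.11 (SE 0.80, edgeR adjusted p = 0.979). KO_CCL4 25 was the highest and KO_CCL4 15 the lowest of the 5 libraries. KO_CCL4 25 was also the highest for Mcm6, and KO_Oil 11 the lowest, with 2.87 and 5.03 CPM after oil and 5.90, 11.5 and 3.32 CPM after CCl4 (log2 0.81, SE 0.62, edgeR adjusted p = 0.644). Uhrf1 had 0.574 and 0.136 CPM after oil and 0.484, 1.65 and 0.101 CPM after CCl4, on 5 and 26 counts. Mcm10 went from 89.6 and 92.3 CPM to 48.9, 70.2 and 46.4 CPM, below both oil libraries in each case. Its log2 fold change of -0.72 (SE 0.22, edgeR adjusted p = 0.18) was close to that in wild type, and the interaction of genotype and CCl4 for Mcm10 was 0.12 (SE 0.30).

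Tk1 had 56.7 and 56.9 CPM in KO_Oil 11 and 12 and 35.7, 26.2 and 30.6 CPM in the KO_CCL4 libraries. The groups were far apart, and the log2 fold change of -0.88 (SE 0.19, edgeR adjusted p = 0.0607) missed the threshold. Cdt1 had 5.74 and 4.35 CPM after oil and 2.22, 3.38 and 2.72 CPM after CCl4, again without overlap (log2 -0.85, SE 0.36, edgeR adjusted p = 0.344). Ccne1 had 4.45 and 2.45 CPM after oil and 1.16, 1.24 and 0.503 CPM after CCl4 (log2 -1.80, SE 0.60, edgeR adjusted p = 0.213). In all 3 of these genes the wild-type fold change was above 0.

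**Figure D4:**
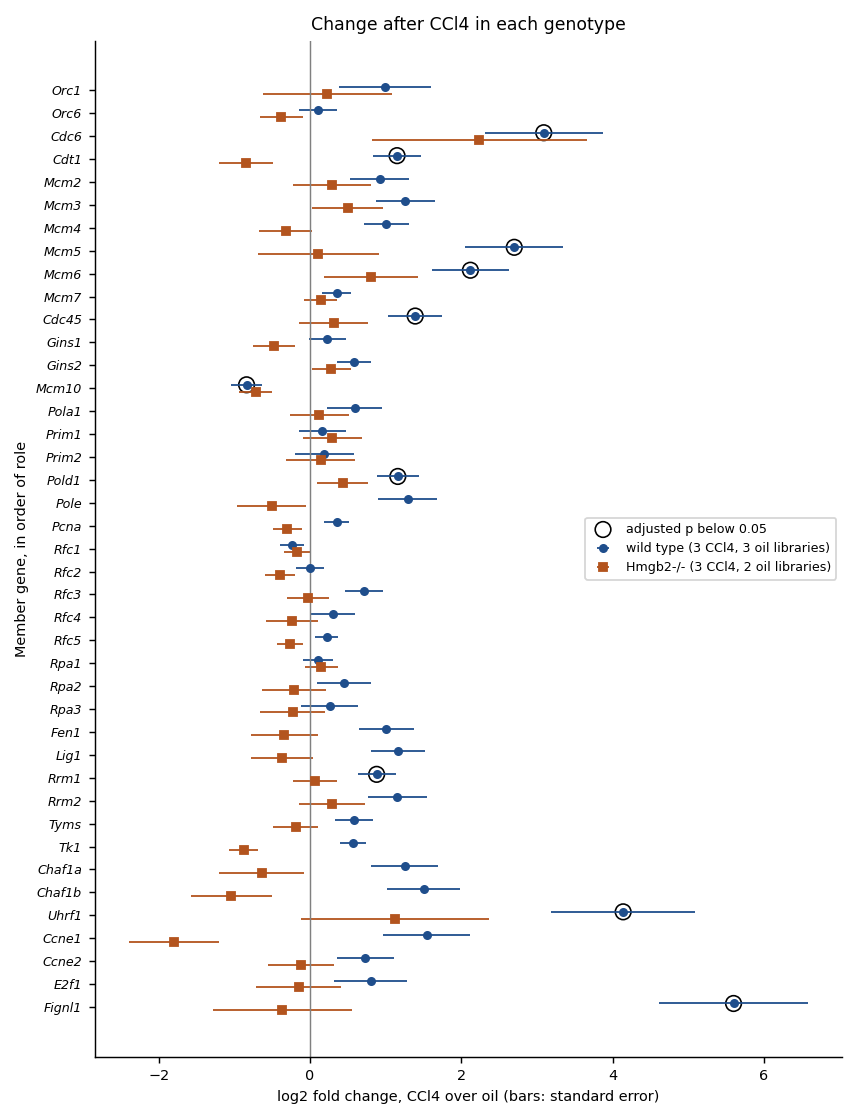
Log2 fold change of each member after CCl4 over oil with its standard error, in wild-type (blue circles) and Hmgb2-/- liver (brown squares), where open rings mark an adjusted p below 0.05. The median over the members is 0.80 in wild type and -0.17 in Hmgb2-/- liver, all rings are on wild-type values, and Mcm10 is below 0 in both. The Fignl1 value in wild type is a fitted value on 1 count after oil and is not a bound.

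After oil 1 member differed between genotypes. Tk1 was higher in Hmgb2-/- liver, with the 56.7 and 56.9 CPM above beside 29.4, 25.9 and 18.9 CPM in wild type (2.30-fold, log2 1.20, SE 0.19, edgeR adjusted p = 0.0075). The call was lost without KO_Oil 11, with an adjusted p of 0.0792. The call of 1 member (2.44%) was near the 2.19% of all genes called higher, and 1.92% of all genes were called lower. Tk1 (chromosome 11, 117815525 to 117826092, minus strand) shares 83 exonic bases with Afmid on the other strand. At an unadjusted p below 0.05 there were 10 members higher and 0 lower, beside 10.2% and 9.79% of all genes. In 15 members both Hmgb2-/- libraries lay above all wild-type libraries, and in 1, Mcm2, below, beside 19.7% and 19.2% of all genes. The median over the members was 0.35, and over all genes 0.01. Ccne1, with 0.795, 0.686 and 0.584 CPM in wild type, had a fitted fold of 4.95 and missed the threshold (log2 2.31, SE 0.63, edgeR adjusted p = 0.0602). Ccne1 passed with DESeq2, with only the groups compared, with the offset for GC content and length, without WT_CCL4 4, without WT_CCL4 5 (also together with WT_Oil 1) or without KO_CCL4 15. Fignl1 had 0.718 and 0.408 CPM against 1 count in the 3 wild-type libraries, a depth-scaled ratio of 18.0 with a 95% counting interval of 2.41 to 798 (edgeR adjusted p = 0.142). Pcna had 27.7 and 24.2 CPM against 18.0 to 20.3 CPM (log2 0.46, SE 0.19, edgeR adjusted p = 0.198). Of the helicase subunits none had an unadjusted p below 0.05, and their log2 differences ranged from -0.73 for Mcm2 to 0.37 for Mcm5.

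After CCl4 no member was called between genotypes by edgeR, beside 0.308% of all genes higher and 0.889% lower in Hmgb2-/- liver, and DESeq2 called 2, Mcm2 and Mcm5, as lower (4.88% of the members beside 2.79% of all genes). At an unadjusted p below 0.05 there were 0 members higher and 20 lower, beside 6.78% and 9.93% of all genes. The median over the members was -0.45, that over all genes 0, and 34 of the 41 were below 0. All 6 helicase subunits were among the 20, from -0.45 for Mcm7 to -2.22 for Mcm5 (SE 0.62, edgeR adjusted p = 0.0972), whose KO_CCL4 levels of 0.604 to 3.63 CPM overlapped with WT_CCL4 5 at 2.70 CPM. Also among them were Chaf1a (log2 -1.54, SE 0.45, edgeR adjusted p = 0.113), Chaf1b (-1.15), Uhrf1 (-2.15), Rrm1 (-0.84), Tyms (-0.69) and Fen1 (-1.07). In 7 members every Hmgb2-/- library was below every wild-type library, and in 0 members above, beside 11.4% and 9.25% of all genes. They were Cdt1, Cdc45, Pold1, Rfc2, Rfc5, Chaf1a and Fignl1. Fignl1 passed the count filter only through WT_CCL4 libraries, so its lower level in Hmgb2-/- liver gives no support of its own. Without WT_CCL4 5 the fit called 11 members lower, among them Mcm2, Mcm4, Mcm5, Mcm6, Uhrf1 and Rrm1, beside 2.92% of all genes lower in that fit. The 11 also included Fignl1 and Cdc6, which reached the count filter only through WT_CCL4 libraries, and the test of Uhrf1 rested on WT_CCL4 too. WT_CCL4 5 was singled out partly by a low cycling marker, so more calls without it give no support of their own. Without WT_CCL4 4, WT_CCL4 6 or KO_CCL4 24 the fit called 0 members lower, beside 0.0482%, 0.042% and 0.0238% of all genes.

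The interaction of genotype and CCl4, which tests whether the response to CCl4 differed, called no member by edgeR, beside 0.0593% of all genes higher and 0.0415% lower. DESeq2 called 5 with a negative interaction, namely Fignl1, Cdt1, Chaf1b, Ccne1 and Tk1, beside 1.2% of all genes. In each of the 5 the fitted fold change after CCl4 was above 0 in wild type and below 0 in Hmgb2-/- liver. For Fignl1, which passed the count filter only through WT_CCL4 libraries, this gives no support of its own. At an unadjusted p below 0.05 there were 0 members higher and 12 lower, beside 5.74% and 8% of all genes, and the members' median was -0.76. Tk1 came closest with -1.45 (SE 0.26, edgeR adjusted p = 0.057), followed by Cdt1 with -2 (SE 0.48, edgeR adjusted p = 0.121) and Ccne1 with -3.34 (SE 0.83, edgeR adjusted p = 0.127). For these 3 genes the interaction joins a fold change above 0 after CCl4 in wild type, which passed for Cdt1, and a difference above 0 between genotypes after oil, which passed for Tk1. The comparisons share libraries, so their values for a gene are not independent of each other.

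Other genes of the cell cycle were counted beside the members, from lists written for this comparison. Of 25 genes of mitosis and the spindle 23 rose in wild-type liver after CCl4, with a median log2 fold change of 3.14, beside 6.98% of all genes. After CCl4 14 of the 25 were lower in Hmgb2-/- than in wild-type liver, with a median of -2.51, beside 0.889% of all genes. Without WT_CCL4 4, WT_CCL4 6 or KO_CCL4 24 none of the mitosis genes tested was called lower there, beside 0.0482%, 0.042% and 0.0238% of all genes. Without WT_CCL4 5 the count was 23, beside 2.92% of all genes. That library was singled out partly by a low cycling marker, so the larger count without it gives no support of its own. Cdc20, which starts anaphase, had 0.795, 0.534 and 0.0974 CPM after oil and 11.6, 5.93 and 14.2 CPM after CCl4 in wild type, so that WT_CCL4 5 stood well above the oil group. In WT_CCL4 5 the median mitosis gene was 1.13 above the wild-type oil mean on the log2 scale, and the median member 0.09. In WT_CCL4 4 and 6 these medians were 2.63 and 2.61 for mitosis and 1.09 and 0.80 for the members. Of 39 further replication genes 3 rose in wild type (7.69%, near the 6.98% of all genes), with a median of 0.07. They were Dbf4, the activator of the origin-firing kinase (log2 1.89, edgeR adjusted p = 0.0212), the histone chaperone Asf1b (1.96, adjusted p = 0.0459) and Dnmt1 (0.83, adjusted p = 0.0462). Chtf18, a subunit of an alternative clamp loader, was lower in Hmgb2-/- than in wild-type liver after CCl4 (-2.98, edgeR adjusted p = 0.0364), a call lost in 9 of the 17 other settings in which it was tested.

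**Figure D5:**
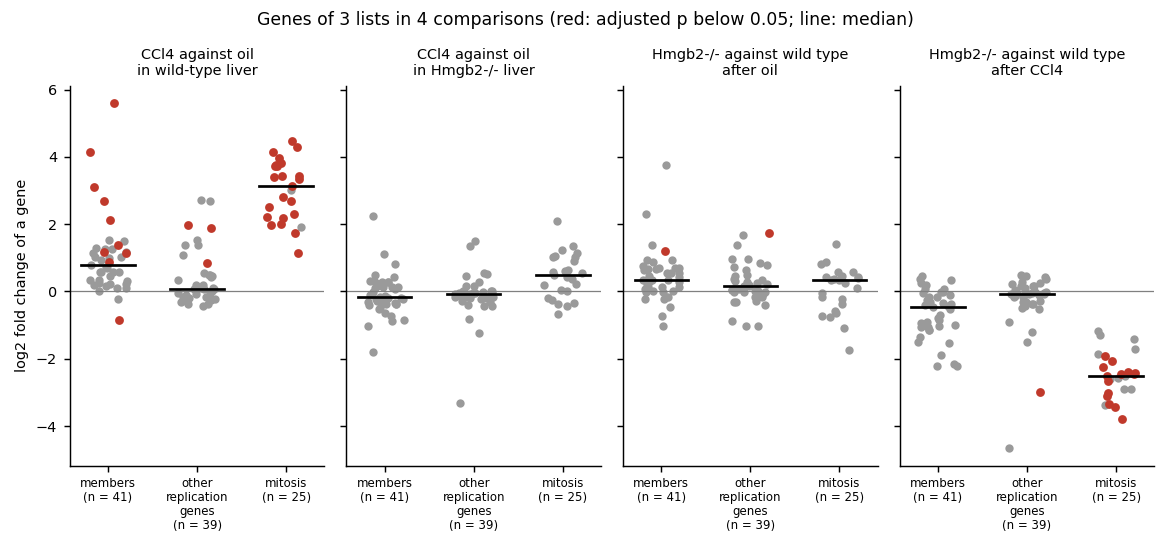
Log2 fold change of each gene (points, red at an adjusted p below 0.05) for the members, 39 other replication genes and 25 mitosis genes in 4 comparisons, with the median as a line. In wild-type liver after CCl4 the medians are 0.80, 0.07 and 3.14, in Hmgb2-/- liver -0.17, -0.09 and 0.48, between genotypes after oil 0.35, 0.15 and 0.33, and between genotypes after CCl4 -0.45, -0.09 and -2.51.

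Of 27 other regulators of the passage from G1 to S phase 6 rose and 1 fell in wild-type liver after CCl4, beside 6.98% and 1.51% of all genes. The cyclin genes Ccna2 and Ccnd1 rose (log2 1.73 and 2.32, edgeR adjusted p = 0.0267 and 0.0373), as did the inhibitor genes Cdkn2c and Cdkn1c (1.33 and 1.36), and E2f8, a repressing E2F family member, fell by 1.34 (adjusted p = 0.00391). E2f8 had 23.8, 36.4 and 32.4 CPM after oil and 12.1, 13.3 and 11.2 CPM after CCl4, and it was already low in Hmgb2-/- liver after oil, with 9.76 and 7.34 CPM (log2 -1.86, edgeR adjusted p = 0.00626, a call lost without KO_Oil 11 or 12). Gmnn, which encodes the Cdt1 inhibitor geminin, was higher in Hmgb2-/- than in wild-type liver after oil (3.31-fold, edgeR adjusted p = 0.017, lost without WT_Oil 2, WT_Oil 3 or KO_Oil 11). Cdkn1a, the inhibitor p21, had 19.1, 4.50 and 14.5 CPM in wild type after oil and 0 and 0.136 CPM in Hmgb2-/- (edgeR adjusted p = 0.0398), on 1 count in the latter group, a call that 8 of 21 other settings lost. Of the rises in this and the preceding list those of Ccna2, Ccnd1, Cdkn1c, Dbf4, Asf1b and Dnmt1 were lost without WT_CCL4 4 or without WT_CCL4 6, while the rise of Cdkn2c and the fall of E2f8 after CCl4 held in all 21 settings.

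Markers of some other cell types were higher where the members were higher, and others were not. In wild-type liver after CCl4 all 10 infiltrating macrophage markers rose, from a summed level of 50 to 99.9 CPM after oil to 190 to 594 CPM, and 8 of 10 stellate cell markers rose, from 427 to 508 CPM to 1020 to 2750 CPM. Without WT_CCL4 4 or without WT_CCL4 6 the calls fell to 5 of 10 in both lists. In Hmgb2-/- liver, where the members' median after CCl4 was -0.17, none of these markers was called, yet 9 of 10 macrophage markers (median log2 0.79, summed level 70.3 to 78.4 CPM after oil and 124 to 168 CPM after CCl4) and all 10 stellate markers (median 1.41, 481 to 530 and 706 to 989 CPM) were above 0. Neutrophil markers were highest in WT_CCL4 5, where the members were low, with 21.6 CPM beside 6.91 and 7.82 CPM in WT_CCL4 4 and 6. After oil Kupffer cell markers summed to 503 to 701 CPM in wild type and 745 to 892 CPM in Hmgb2-/- liver, and hepatocyte markers to 63100 to 69800 and 48300 to 54500 CPM, both without overlap. In wild type after CCl4 Kupffer cell markers summed to 870 to 987 CPM and hepatocyte markers to 50600 to 62900 CPM. Neither range overlapped with wild type after oil. B and plasma cell markers summed to 8.38 to 10.9 CPM and 23.5 to 28.9 CPM in wild type, and T and NK cell markers to 3.51 to 4.2 and 4.80 to 5.66 CPM. After oil, T and NK cell markers were at 9.33 and 12.5 CPM in KO_Oil 11 and 12. Ly6g of the neutrophil list was at 0 in both KO_Oil libraries, none of the other markers of these 7 lists was at 0 in a whole group, and their part in the members' values was not tested.

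The authors' deposited table, in which a gene is taken here at a DESeq2 adjusted p below 0.05, holds 13 members as higher and 1 as lower after CCl4 in wild-type liver, beside 7.52% and 2.2% of its genes, and 10 of the 14 are the 10 called above. The 4 others in the authors' deposited table are Mcm3, Pole, Lig1 and Chaf1b. The authors' deposited table also holds Tk1 and Ccne1 as higher in Hmgb2-/- liver after oil (log2 ratios 1.12 and 1.81, adjusted p = 0.0105 and 0.0234), beside 2.73% of its genes higher and 2.73% lower. Between genotypes after CCl4 the authors' deposited table holds Mcm5 as lower (log2 ratio -1.83, adjusted p = 0.0247), beside 1.05% of its genes higher and 2.07% lower. For CCl4 in Hmgb2-/- liver the authors' deposited table holds 0 members, beside 0.937% of its genes higher and 0.786% lower.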

How the data were processed

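RNA of mouse liver was sequenced in 11 libraries, grouped by their labels for genotype and treatment. A stranded total RNA kit was used, per the labels' protocols, while the design text speaks of capped RNA. Per the submitters' processing notes Bowtie, DESeq2 and mm10 (GRCm38) were used, without versions. Per the file headers the authors deposited raw counts per gene made with USeq, with a read pair counted once for each gene it overlaps. No source used here says whether counting used strand, so for the 15 members that share exonic bases with another annotated gene reads of both may be mixed. The authors also deposited FPKM values, log2 ratios, scores from DESeq2 adjusted p-values and gene lengths.

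The quasi-likelihood test of edgeR 4.0.16 in R 4.3.3 was run on the counts with TMM scaling. The filter filterByExpr, with a minimum count of 10 and a minimum total of 15, left 16866 genes after dropping 2341. A single model of the 4 group means held every library and gave 5 contrasts, and calls were made at adjusted p below 0.05. CPM are counts over the TMM-scaled library size. The test was checked on simulated counts. The numbers of libraries (3, 3, 2 and 3) limit the precision, and counting intervals are exact at 95%.

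All 41 members are accounted for in role order, and values per library are given for those called in any contrast and for Pcna, Mcm2, Rrm2, Ccne1, E2f1, Cdc6 and Cdt1. Of other lists up to 4 called genes per contrast are named, with Mki67, Ccna2, Ccnd1, Cdkn1a and Hmgb2. The members and lists were chosen with earlier results of these data known. Promoters are RefSeq's, and exon overlaps are from GENCODE vM21. Alternatives were other scalings, filters and tools (DESeq2 1.42.0, limma 3.58.1), fewer groups, left-out libraries and, added after seeing the data, an offset for GC content and length.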

Additional observations from a re-analysis of the deposited data

Results flagged for a closer look

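The response of 2 members to CCl4 went in opposite directions in the 2 genotypes, with no overlap between oil and CCl4 libraries in either. Of all genes 17.1% were higher and 11.7% lower without overlap in wild type, and 15.6% and 14% in Hmgb2-/- liver. The share of all genes that meets both rules in opposite directions was not counted, so 2 members may be no more than usual. Tk1 was higher after CCl4 in all wild-type libraries and lower in all Hmgb2-/- libraries, and the interaction was -1.45 on the log2 scale (SE 0.26, edgeR adjusted p = 0.057). Cdt1 showed the same pattern with an interaction of -2 (SE 0.48, edgeR adjusted p = 0.121). Between genotypes after CCl4 the log2 difference was -0.25 for Tk1 and -1.06 for Cdt1 (edgeR adjusted p = 0.502 and 0.117). After oil it was 1.20 for Tk1 and 0.94 for Cdt1, and only that of Tk1 passed, a call lost without KO_Oil 11. Neither gene passed the adjusted test of the interaction in the fit of all libraries. Without WT_CCL4 5 both passed, beside 1.03% of all genes lower, and DESeq2 called both, beside 1.2%. The flag itself required opposite directions, and both genes were lowest of their group in WT_CCL4 5. The sign of the interaction and the calls without that library therefore give no support of their own. The interaction stayed uncalled in 12 of 20 other settings for Tk1 and in 16 of 19 for Cdt1.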

How the results depend on the processing

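In wild-type liver after CCl4 the members that rose numbered 9 (beside 6.98% of all genes), and 3 with a mean of at least 5 CPM (5.91%), 16 with DESeq2 (8.37%), 4 with limma-voom (6.04%), 5 with only the groups compared (7.11%) and 20 with WT_Oil 1 and WT_CCL4 5 left out together (9.03%). Leaving out single libraries gave 0 to 21 members higher and 0 to 1 lower. Without WT_CCL4 4 or 6 the count was 0 (2.68% and 2.37%), without WT_Oil 2 or 3 it was 1 (Fignl1; 3.38% and 2.68%), and without WT_CCL4 5 it was 21 (9.66%). Fignl1 and Cdc6 were not tested without WT_CCL4 4 or 6 because they no longer passed the count filter. In Hmgb2-/- liver after CCl4 Tk1 was the 1 member called lower with DESeq2 (1.04% of all genes), with WT_Oil 1 and WT_CCL4 5 left out (0.537%) and with the offset for GC content and length (0.362%), and single libraries left out gave 0 to 1. The members' median there was -0.41 with both E-numbered KO_CCL4 libraries (24 and 25, by their titles) left out. Between genotypes after oil the members higher numbered 2 with DESeq2, with only the groups compared and with the offset (3.77%, 2.92% and 3.34%), 3 with WT_Oil 1 and WT_CCL4 5 left out (2.22%), and 0 to 2 with single libraries left out, where the median ranged from 0.20 to 0.56. Between genotypes after CCl4 the members lower numbered 2 with DESeq2 (2.79%), 15 with WT_Oil 1 and WT_CCL4 5 left out (3.96%), and 0 to 11 with single libraries left out. For the interaction they numbered 1 with a mean of at least 5 CPM, with both E-numbered libraries left out and with the offset (0.0813%, 0.719% and 0.213%), 5 with DESeq2 and with WT_Oil 1 and WT_CCL4 5 left out (1.2% and 1.05%), and 0 to 5 with single libraries left out. Its median was -1.12 with both E-numbered libraries left out. The cause of these differences was not tested. The fold change of 4, 23, 16, 11 and 7 of the 41 members changed sign in at least 1 setting in the 5 comparisons in this order, and none of these was called on either side. RLE and upper quartile scaling and no filter gave counts within 1.5 times the main ones. No paired analysis was possible because groups share no replicate number. Depth limits Cdc6, Uhrf1, Fignl1 and Orc1, of which several libraries hold few reads.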
